A study of Rattus norvegicus with 5 samples.

Results

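A family of 5 genes that sets how fast the matrix around heart cells is cut was followed, namely the matrix metalloproteinases Mmp2 and Mmp14 and the tissue inhibitors of metalloproteinases Timp1, Timp2 and Timp3. They are grouped by function, and they are 5 of the 15074 rat genes listed in all 5 tables of the series. Each is listed in all 5 tables under its Ensembl ID, ENSRNOG00000016695 for Mmp2, ENSRNOG00000010947 for Mmp14, ENSRNOG00000010208 for Timp1, ENSRNOG00000003148 for Timp2 and ENSRNOG00000004303 for Timp3. The tables give IDs without names, so these names come from the definition of the family and not from the files.

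The series holds single-cell RNA libraries from cultured ventricular cells of wild-type neonatal Sprague Dawley rats (age P2), in which myocytes and non-myocytes were kept together. Cultures received an adenovirus with GFP or an adenovirus with the T-box transcription factor TBX18, and were sampled at day 3 or day 14, and 1 further TBX18 culture, titled day 14, received 0.2 µM A83-01, a compound that blocks the kinase of TGF-beta type I receptors. The treatment label of that last culture gives 3 days, so the length of its exposure to A83-01 is not settled here. By its title the series addresses the conversion of ventricular myocytes into pacemaker cells by TBX18. Every group has 1 library. No test between groups could therefore be made and no replicate stands behind any difference, and all intervals are exact 95% intervals that cover counting error only.

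Matrix metalloproteinases are zinc enzymes that cut collagens and other proteins of the extracellular matrix. Mmp2 encodes gelatinase A, which is secreted as an inactive precursor, and Mmp14 encodes a membrane-bound enzyme (MT1-MMP) that activates that precursor at the cell surface. The TIMP proteins block these enzymes by binding to their active site. Timp2 has a further role, since a complex of the Timp2 and Mmp14 proteins holds the Mmp2 precursor in place for activation. Timp1 is a weak inhibitor of Mmp14, and Timp3 stays bound to the matrix and also blocks proteases of the ADAM type. In the heart, fibroblasts are a well-known source of Mmp2 and of the TIMPs, and TGF-beta is a well-known inducer of Timp1.

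RefSeq promoters were found for 3 of the 5 genes, Timp1, Timp2 and Timp3. They are shown because the 3 inhibitors had different directions with A83-01, with Timp1 lower, Timp2 nearly level and Timp3 higher in the larger day 14 compartment. Each line gives the 250 bases before the transcription start in the table used, from RefSeq on build GRCr8 and on the minus strand, and capitals mark the matches to the motifs listed after them. The positions are chrX:3771123-3771372 for Timp1, chr10:104089215-104089464 for Timp2 and chr7:19459559-19459808 for Timp3.
Timp1: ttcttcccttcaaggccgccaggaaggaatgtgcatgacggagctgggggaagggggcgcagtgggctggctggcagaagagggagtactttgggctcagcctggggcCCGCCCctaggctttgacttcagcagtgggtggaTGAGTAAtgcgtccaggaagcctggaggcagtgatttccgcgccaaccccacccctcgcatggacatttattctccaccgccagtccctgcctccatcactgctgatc
Timp2: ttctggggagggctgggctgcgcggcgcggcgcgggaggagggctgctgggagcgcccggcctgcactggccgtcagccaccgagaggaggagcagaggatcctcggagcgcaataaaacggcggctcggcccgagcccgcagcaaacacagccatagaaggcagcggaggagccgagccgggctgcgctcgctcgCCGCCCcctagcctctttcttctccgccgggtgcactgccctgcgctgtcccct
Timp3: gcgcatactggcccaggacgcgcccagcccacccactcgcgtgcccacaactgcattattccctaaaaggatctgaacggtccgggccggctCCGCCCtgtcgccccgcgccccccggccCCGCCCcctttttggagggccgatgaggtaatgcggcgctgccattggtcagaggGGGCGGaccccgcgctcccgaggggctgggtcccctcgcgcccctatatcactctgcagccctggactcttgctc
Both strands were searched for the AP-1 element TGANTCA, the variant AP-1 element TGAGTAA known from the Timp1 promoter, the T-box half-site AGGTGTGA, the SMAD palindrome GTCTAGAC, the GC box GGGCGG and the TATA box TATAAA. Among 33469 promoter windows of the same length these letters occurred in 6.34%, 2.38%, 0.959%, 0.173%, 30.5% and 12.9%, in the same order. The Timp1 window held 1 TGAGTAA, with its first base 108 bases upstream of the start, and 1 GC box. The Timp2 window held 1 GC box and the Timp3 window held 3. Neither the T-box half-site nor the SMAD palindrome was found in these 3 windows with these letters. A match is a description of sequence and not a bound site.

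The 2 day 3 libraries held 8859 (GFP) and 6781 (TBX18) barcodes. The day 14 libraries held 6424 (GFP), 8337 (TBX18) and 7618 (TBX18 with A83-01), and median depths ran from 15610 to 28566 UMIs per barcode (a UMI marks 1 captured RNA molecule). Of 37875 different barcode sequences, 144 were found in more than 1 library. The day 14 tables start at 1993 genes per barcode and end at 33982 UMIs, limits that are absent from the day 3 tables. The days therefore differ in the deposited unit and in these limits as well as in time. Marker genes could not be read without names, so the labelled cell types could not be checked. Cells were therefore joined into 2 unnamed compartments from clusters made without the 5 genes and without the virus features. Compartment 1 is the one in which more cells of the day 3 GFP library held an EGFP UMI, and which compartment holds the myocytes was not settled. EGFP stood at 96.6 CPM (a gene's UMIs as a share of all UMIs, scaled to a common total) in compartment 1 and at 6.25 CPM in compartment 2 of that library, and hTBX18 stood at 23.7 and 1.06 CPM in the TBX18 library at day 3. Compartment 1 made up 59.0% and 51.4% of kept cells at day 3 for GFP and TBX18, and 33.4%, 16.1% and 34.3% in the day 14 libraries (GFP, TBX18, A83-01).

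A single cluster in each library bears on all values of compartment 1. To find it, the 50 genes most one-sided towards compartment 2 were taken in each library, with the 5 family members left out. Their summed level in 1 cluster of compartment 1 reached 23.6% of the compartment 2 level for GFP at day 3, 58.4% for TBX18 at day 3, 36.7% for GFP at day 14, 43.0% for TBX18 at day 14 and 22.7% with A83-01. In every other cluster of compartment 1 it was at most 9.09%. The mixed cluster held 76, 66, 270, 165 and 365 cells in the same order, or from 1.68% to 14.8% of the compartment. Its median depth was 30077, 38147, 23081, 21187 and 22961 UMIs, against 22374, 29741, 15131, 15917 and 19517 in the whole compartment. Whether these are doublets or cells with both programmes was not tested. Values of compartment 1 are therefore given with the mixed cluster left out, a choice made after seeing the data, and with it where the direction or size differs.

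Levels of 4 of the 5 genes were several times higher in compartment 2 than in compartment 1 in every library. Timp2 was the most abundant there by UMI count, at 1255 CPM (GFP) and 1071 CPM (TBX18) at day 3 and at 928 CPM (GFP), 1106 CPM (TBX18) and 1078 CPM (A83-01 with TBX18) at day 14. Further series of 5 values below follow this order. Each UMI of these 3' libraries counts 1 molecule whatever its length, so levels of different genes are set side by side as UMI counts, apart from unequal capture. Over compartment 1 as a whole, Mmp2 was higher in compartment 2 by 19.1, 18.8, 5.15, 7.60 and 7.73 times in the same order. The same quotient was from 6.45 to 76.5 for Mmp14, from 5.27 to 10.7 for Timp1 and from 4.48 to 11.4 for Timp2. The size of these quotients depends on the mixed cluster. With it, Mmp2 in compartment 1 stood at 5.23%, 5.33%, 19.4%, 13.2% and 12.9% of its compartment 2 level. Without it, the shares were 1.19%, 1.71%, 2.98%, 5.25% and 1.43%. A difference of at least 2-fold between compartments was common, since it was found for 46.9%, 44.2%, 42.4%, 37% and 49.2% of all genes tested. Timp3 was the exception, with quotients of 1.05, 1.24, 0.729, 0.898 and 2.92, so that its 2 compartments lay close together in the first 4 libraries. With A83-01, compartment 1 stood at 34.2% of the compartment 2 level of Timp3, and at 15.0% without the mixed cluster.

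**Figure D1:**
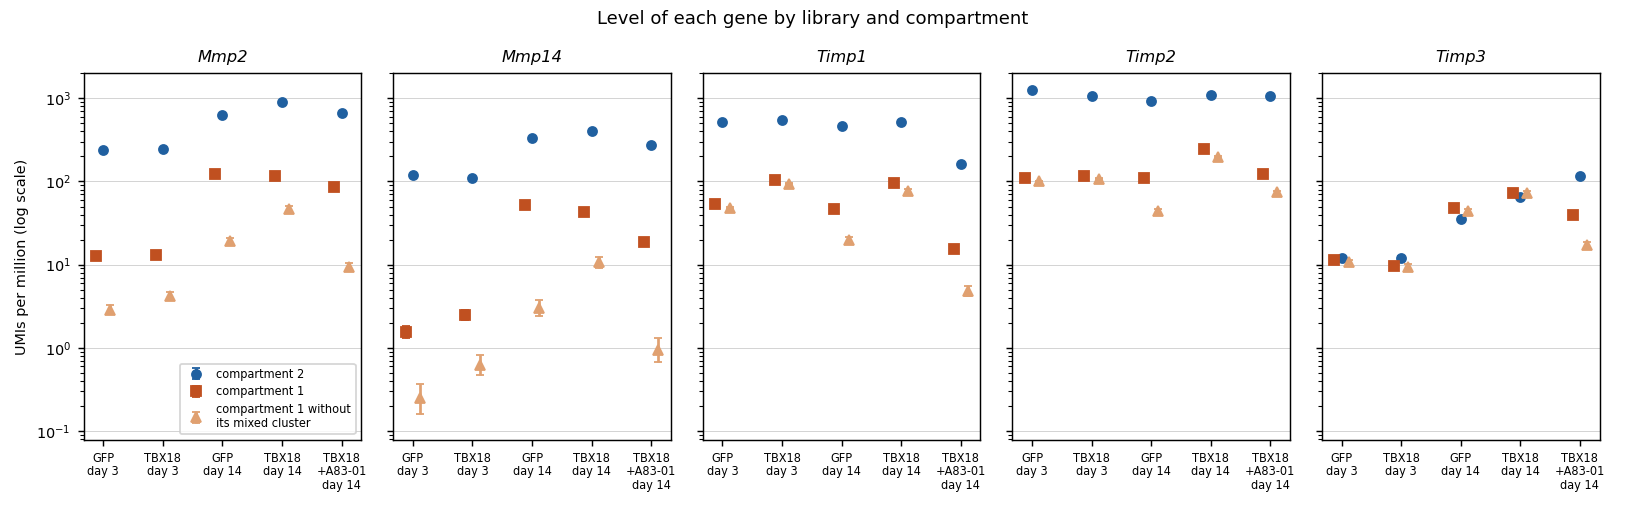
Level of each gene in CPM (log scale) in the 5 libraries, with 1 point for compartment 2, for compartment 1 and for compartment 1 without its mixed cluster; bars are exact 95% counting intervals, most of them smaller than the points. Timp3 is the gene whose compartments lie together, for example at 34.9 and 47.9 CPM with GFP at day 14.

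The proteases were higher at day 14 than at day 3 in compartment 2, whichever virus was given. Mmp2 stood at 242 CPM with GFP and 246 CPM with TBX18 at day 3, and at 638 CPM with GFP, 892 CPM with TBX18 and 657 CPM with TBX18 and A83-01 at day 14. Mmp14 stood at 119 and 109 CPM at day 3 and at 333, 406 and 272 CPM at day 14. For both genes the TBX18 library at day 14 was the highest. Mmp2 was 2.64-fold higher at day 14 with GFP (log2 ratio 1.40, interval 1.38 to 1.43) and 3.63-fold higher with TBX18 (1.86, interval 1.84 to 1.88). For Mmp14 the folds were 2.79 and 3.71. Of all genes tested in compartment 2, 18.2% were at least 2-fold higher at day 14 with GFP and 25.3% with TBX18. With day 3 cells held to the day 14 limits on genes and UMIs, the log2 ratios of Mmp2 were 1.43 and 1.90. The 2 enzymes kept nearly the same ratio to each other, with 2.03 and 2.25 UMIs of Mmp2 per UMI of Mmp14 at day 3 and 1.92, 2.20 and 2.41 at day 14. The share of cells with a UMI, after every cell had been thinned to 5000 UMIs, went from 58.4% (GFP) and 59.6% (TBX18) at day 3 to 86.7%, 92.7% and 88.5% at day 14 for Mmp2. Without thinning these shares were 86.0%, 89.4%, 94.6%, 98.4% and 97.4%. In compartment 1 without its mixed cluster the thinned share was between 1.57% and 17.5%.

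Between the days in the same cells, Timp1 was nearly level, Timp2 was 1.35-fold lower with GFP and nearly level with TBX18, and Timp3 was higher. In compartment 2, Timp1 stood at 520 and 543 CPM at day 3 and at 469 and 524 CPM at day 14 (GFP and TBX18 each time). As log2 ratios of day 14 to day 3, Timp1 differed by -0.15 with GFP and -0.05 with TBX18, and Timp2 by -0.43 and 0.05. Timp3 stood at 12.04 CPM with GFP and 12.02 CPM with TBX18 at day 3, and at 34.9 CPM with GFP and 65.8 CPM with TBX18 at day 14, which was 2.90-fold and 5.47-fold higher. Thus 3 of the 5 genes (Mmp2, Mmp14 and Timp3) were at least 2-fold higher at day 14 in each arm and 0 were at least 2-fold lower. Timp3 reached the mean of 20 CPM asked of all genes tested through day 14, where it was higher. Among all genes tested in compartment 2, 18.2% were at least 2-fold higher and 9.58% at least 2-fold lower with GFP, and 25.3% and 6.86% with TBX18. The median log2 ratio of the 5 genes was 1.40 with GFP and 1.86 with TBX18, against 0.05 and 0.28 over all genes. Scaling by the median of ratios lowered the TBX18 values by 0.27, which left 3 genes past 2-fold and turned Timp2 to -0.23.

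Inhibitor transcripts made up a smaller part of the family at day 14. Inhibitors made up 83.2% (interval 83.0% to 83.4%) of the 5 genes' UMIs in compartment 2 with GFP at day 3 and 82.1% with TBX18. At day 14 they made up 59.6% with GFP, 56.6% with TBX18 and 59.4% with TBX18 and A83-01. Such shares do not depend on how libraries are scaled. There were 5.19 and 4.35 UMIs of Timp2 per UMI of Mmp2 at day 3, and 1.45, 1.24 and 1.64 at day 14. Timp1 took 24.2% and 27.4% of the family's UMIs at day 3, 19.5% and 17.5% at day 14 with GFP and TBX18, and 7.14% with A83-01. Timp3 took 0.560% and 0.607% at day 3, and 1.45%, 2.20% and 5.09% at day 14. In compartment 1 without its mixed cluster inhibitors were 98.1% and 97.8% of the family's UMIs at day 3 and 83.1%, 85.8% and 90.3% at day 14. With the mixed cluster kept they were 92.5%, 93.6%, 53.8%, 72.3% and 63.1%.

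**Figure D2:**
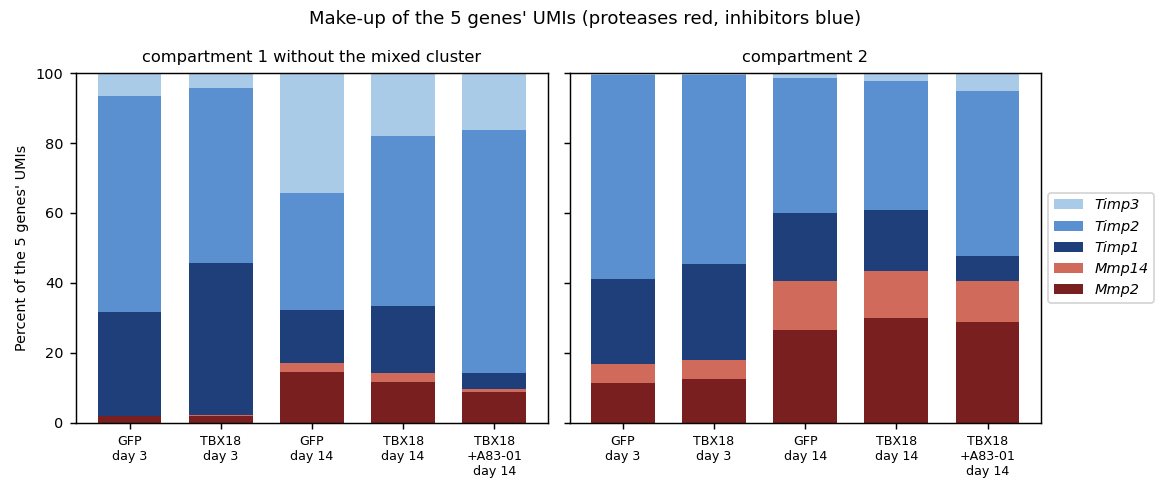
Percent of the 5 genes' summed UMIs that came from each gene, 1 bar per library, for compartment 1 without its mixed cluster (left) and for compartment 2 (right), with the proteases in red and the inhibitors in blue. In compartment 2 the blue part is 83.2% with GFP at day 3 and 56.6% with TBX18 at day 14.

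In compartment 2 the family differed little between TBX18 and GFP at day 3 and more at day 14. At day 3 the 5 log2 ratios lay between -0.23 (Timp2) and 0.06 (Timp1), and 0 of 5 were at least 2-fold higher or lower, where 1.16% and 0.742% of all genes were. At day 14 every gene was higher with TBX18. Timp3 was 1.88-fold higher, at 65.8 against 34.9 CPM (log2 ratio 0.91, interval 0.84 to 0.98), above 97.2% of all genes tested. Mmp2 was 1.40-fold higher (log2 ratio 0.48, above 90.8% of genes), and the log2 ratios of Mmp14, Timp2 and Timp1 were 0.28, 0.25 and 0.16. The median over all genes was 0.13, and relative to it (median-of-ratios scaling) Timp1 differed by only 0.02. None of the 5 was at least 2-fold higher or lower, where 2.29% and 0.421% of all genes were.

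With A83-01 and TBX18, set against TBX18 alone at day 14, Timp1 was lower and Timp3 higher in compartment 2. Timp1 stood at 163 CPM with A83-01, against 524 CPM with TBX18 alone and 469 CPM with GFP. It was 3.20-fold lower than with TBX18 alone (log2 ratio -1.68, interval -1.71 to -1.65), and 2.31% of all genes tested had a lower ratio. Timp3 stood at 116 CPM against 65.8 and 34.9 CPM, 1.77-fold higher than with TBX18 alone (log2 ratio 0.82, interval 0.78 to 0.87) and above 96.2% of all genes. Timp2 stood at 1078 against 1106 CPM, a log2 ratio of -0.04 whose sign depended on the scaling. The proteases were lower, Mmp2 by 1.36-fold (log2 ratio -0.44) and Mmp14 by 1.49-fold (log2 ratio -0.58). Mmp2 stood at 657 CPM, near its 638 CPM with GFP, while Mmp14 at 272 CPM was also below its 333 CPM with GFP. The comparisons with GFP and with A83-01 at day 14 share the TBX18 library, so a value that is high there would enter both with opposite signs.

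The A83-01 library thus had the lowest Timp1 and the highest Timp3 of the 5 libraries in compartment 2. There were 43.2 and 45.1 UMIs of Timp1 per UMI of Timp3 at day 3, 13.4 with GFP and 7.96 with TBX18 at day 14, and 1.40 with A83-01. After thinning, 50.1% of compartment 2 cells held a Timp1 UMI with A83-01, against 79.0% with TBX18 alone, and 30.8% held a Timp3 UMI against 18.3%. Unthinned shares were 84.3% against 96.9% for Timp1 and 56.0% against 33.9% for Timp3. In compartment 1 without its mixed cluster the thinned share was 1.75% for Timp1 with A83-01 and 24.98% with TBX18. Of the 5 genes 1, Timp1, was at least 2-fold lower in compartment 2 and 0 were at least 2-fold higher, where 6.07% and 2.51% of all genes were. Across every alternative processing the Timp1 log2 ratio in compartment 2 stayed between -1.75 and -1.56 and that of Timp3 between 0.80 and 0.94. The day 14 limits on genes and UMIs could not change this comparison.

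**Figure D3:**
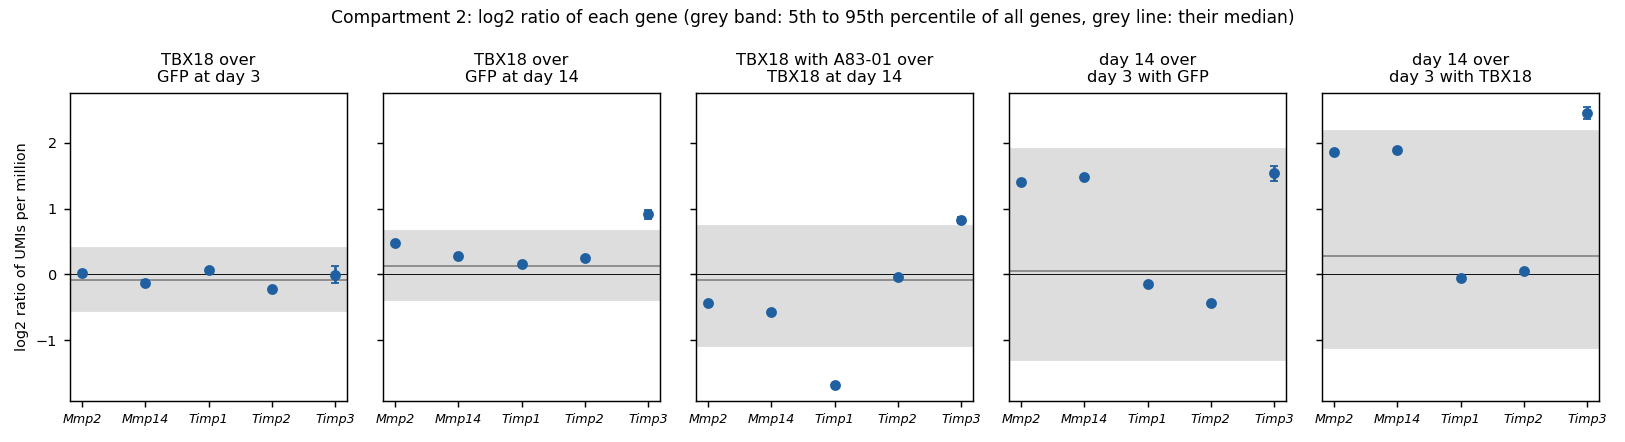
Log2 ratio of each gene in compartment 2 for the 5 comparisons; points are ratios of CPM with exact 95% counting intervals, the grey band spans the 5th to 95th percentile of all genes tested and the grey line is their median. With A83-01, Timp1 (-1.68) lies under the band and Timp3 (0.82) above it.

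In compartment 1 the proteases were close to the level at which genes of the other compartment appeared there. Mmp14, with the mixed cluster left out, stood at 0.250, 0.627, 3.05, 10.6 and 0.95 CPM in the order given above. These are 0.209%, 0.573%, 0.915%, 2.62% and 0.349% of its compartment 2 levels. The 50 genes most one-sided towards compartment 2 had medians of 0.619%, 1.14%, 1.42%, 3.37% and 1.00% in the same cells, above Mmp14 in each library. Such levels are read as background here. The 50 genes were picked in each library for the largest excess in compartment 2, so genes outside them tend to lie above them by that choice. Mmp2 stood at 2.89, 4.21, 19.0, 46.8 and 9.40 CPM, from 1.43 to 2.10 times that median and within the range of the 50 genes in every library. Its share of the compartment 2 level was reached by 2, 10, 13, 3 and 14 of the 50 genes. The folds of Mmp2 and Mmp14 between libraries in compartment 1 moved with this level of other genes, whose part in them was not tested.

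The mixed cluster was high in both proteases. Mmp2 stood at 431, 337, 585, 516 and 478 CPM in it, which is more than in compartment 2 at day 3 and less at day 14. With the mixed cluster kept, Mmp2 was 12.7, 13.1, 124, 117 and 85.0 CPM and Mmp14 was 1.56, 2.50, 51.6, 42.5 and 18.5 CPM over the compartment. Keeping it or leaving it out changed directions. TBX18 over GFP at day 14 gave log2 ratios of -0.08 for Mmp2 and -0.28 for Mmp14 with the mixed cluster, and 1.30 and 1.80 without it. Without it neither protease averaged the 20 CPM over libraries that was asked of all genes tested (16.5 CPM for Mmp2 and 3.10 CPM for Mmp14), so they enter no count there and no fold of theirs is read.

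At day 3 Timp1 and Timp2 were above all of the 50 one-sided genes in compartment 1, and at day 14 they were so only in part of the libraries. Since the 50 genes were picked for low shares there, a place above them does not by itself set a gene apart from background. Timp1, with the mixed cluster left out, stood at 48.4 and 94.0 CPM at day 3 with GFP and TBX18, which is 15.0 and 15.2 times the median share of the 50 genes. At day 14 it stood at 19.8, 77.5 and 4.87 CPM, or 2.98, 4.40 and 2.98 times that median. Its share of the compartment 2 level was reached by 6 of the 50 genes with GFP, by 0 with TBX18 and by 3 with A83-01, so the GFP and A83-01 levels lay within the range of the 50 genes. Timp2 stood at 101 and 108 CPM at day 3 and at 43.9, 198 and 74.3 CPM at day 14, from 3.34 to 13.0 times the median. Its share was reached by 2 of the 50 genes with GFP at day 14 and by 0 in the other 4 libraries. Both genes were high in the TBX18 library at day 14, Timp1 3.92-fold (log2 ratio 1.97, interval 1.82 to 2.12) and Timp2 4.50-fold (2.17, interval 2.07 to 2.27) over GFP. These folds are set against GFP levels within the range of the 50 genes. With the mixed cluster kept the folds were 2.10 and 2.23, and in the 50% of cells purest by one-sided genes the fold of Timp2 was 2.78. The median of the 50 genes was 3.37% with TBX18 and 1.42% with GFP in the same cells, and its part in the folds was not tested. At day 3 Timp1 was 1.94-fold higher with TBX18 (log2 ratio 0.96), while Timp2 was within 0.10. In the 50% of cells purest by one-sided genes that fold of Timp1 was 1.46 (log2 ratio 0.54).

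Timp1 in compartment 1 at day 3 was highest in few clusters. In the TBX18 library, 2 clusters of compartment 1 with 306 and 128 cells stood at 280 and 312 CPM, and the other 8 (mixed cluster left out) lay between 29.3 and 94.3 CPM. Those 2 clusters held 47.9% and 25.1% of the summed level of the 50 genes most one-sided towards compartment 1, the second of them at a median depth of 11792 UMIs. The cluster lowest in Timp1, at 29.3 CPM (119 cells), held 43.1% of it at a median depth of 10126 UMIs. With GFP, a cluster of 50 cells stood at 193 CPM and the other 8 lay between 18.9 and 76.2 CPM. At day 14 the picture was broader. The 3 clusters of compartment 1 with TBX18 stood at 41.9, 90.0 and 224 CPM for Timp1 and at 116, 165 and 566 CPM for Timp2, and the 4 with GFP lay between 13.0 and 38.6 CPM and between 36.8 and 61.6 CPM. These clusters are not replicates. The cluster at 224 and 566 CPM (191 cells) also had 9.09% of the compartment 2 level of the 50 one-sided genes, the most outside a mixed cluster.

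Cells of compartment 1 in which a UMI of their own virus was found differed for Timp1 with TBX18. At day 3, Timp1 stood at 115 CPM in 1369 cells with a UMI of ZsGFP or hTBX18 and at 74.9 CPM in 1706 cells without one (log2 ratio 0.62, interval 0.56 to 0.69). With GFP it stood at 50.4 CPM in 2401 cells with an EGFP UMI and at 45.3 CPM in 2052 without (0.15, interval 0.07 to 0.24). Timp3 went the other way with TBX18 at day 3, at 7.20 against 11.3 CPM, and with GFP stood at 12.1 against 8.88 CPM. For Timp2 the pair was 266 and 183 CPM with TBX18 at day 14 and 45.1 and 42.8 CPM with GFP. Cells with a virus UMI were deeper in each library (31362 against 28335 median UMIs with TBX18 at day 3), and depth, viral dose and cell kind cannot be told apart here. The mixed clusters are left out of these values.

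Timp3 was at like levels in both compartments of the 4 libraries without A83-01. Its levels in compartment 1 without the mixed cluster were 10.8, 9.38, 44.5, 72.2 and 17.4 CPM. As a share of its compartment 2 level, Timp3 lay from 15.0 to 145 times above the median of the 50 one-sided genes. These 50 genes were picked for low shares in compartment 1. Day 14 was higher than day 3 by 4.12-fold with GFP and 7.70-fold with TBX18. With A83-01, Timp3 was 4.14-fold lower than with TBX18 alone in compartment 1 (log2 ratio -2.05, interval -2.18 to -1.92; -0.88 with the mixed cluster kept), while it was 1.77-fold higher in compartment 2. The 2 directions were the same under every alternative run, and the difference was not tested.

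The 3 inhibitors were lower in compartment 1 with A83-01 than with TBX18 alone. Without the mixed cluster, 3 of the 3 genes past the 20 CPM minimum were at least 2-fold lower, where 11.5% of all genes were (0.5% were higher). Timp1 stood at 4.87 against 77.5 CPM, and since the level with A83-01 lay within the range of the 50 one-sided genes, no fold is given for it. Timp2 had a log2 ratio of -1.41, which median-of-ratios scaling brought to -0.98, and which was -0.80 in the 50% of cells purest by one-sided genes, both under 2-fold. The median over all genes was -0.41. With the mixed cluster kept, 3 of 5 genes (Mmp14, Timp1 and Timp2) were at least 2-fold lower, where 9.88% of all genes were (0.487% were higher). In the same cells, the mixed cluster left out, the median share of the 50 one-sided genes was 3.37% with TBX18 alone and 1.00% with A83-01, and compartment 1 made up 16.1% and 34.3% of cells. Their part in the result was not tested.

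The other comparisons in compartment 1 are given for the same 3 genes with the mixed cluster left out. At day 3, 0 of 3 were at least 2-fold higher or lower with TBX18, where 4.48% and 4.03% of all genes were. At day 14, 2 of 3 (Timp1 and Timp2) were at least 2-fold higher with TBX18 and 0 lower, where 4.69% and 1.02% of all genes were. Day 14 over day 3 had Timp3 at least 2-fold higher with either virus, where 10.6% (GFP) and 16.9% (TBX18) of all genes were. Timp3 stood at 10.8 and 9.38 CPM at day 3, so it passed the 20 CPM minimum through day 14, where it was higher. With GFP, 2 of 3 (Timp1 and Timp2) were at least 2-fold lower at day 14, where 7.46% of all genes were, and with TBX18 0 of 3, where 2.55% were. The median log2 ratio over all genes was 0.23 for TBX18 over GFP at day 14 and 0.38 for day 14 over day 3 with TBX18, beside which the ratios of these genes stand.

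With the mixed cluster kept all 5 genes passed the minimum, Mmp2 and Mmp14 through that cluster. Mmp2, Mmp14 and Timp3 lay under 20 CPM in both day 3 libraries. They therefore passed through day 14, the side on which they are counted as higher below. TBX18 over GFP then had 0 of 5 genes at least 2-fold higher and 0 lower at day 3, where 4.54% and 3.9% of all genes were. At day 14 it had 2 higher and 0 lower, where 2.99% and 0.886% were. Day 14 over day 3 had 3 higher and 0 lower with GFP, where 12.3% and 6.34% of all genes were, and 4 higher and 0 lower with TBX18, where 17.8% and 2.44% were.

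Within compartment 2 the genes had their own distribution over clusters. In the GFP library at day 3, a cluster of 266 cells had the lowest Mmp2 of the clusters with at least 100 cells, at 9.47 CPM, and the lowest Timp3, at 0.403 CPM, together with the highest Timp2, at 1891 CPM. The largest cluster of that compartment (1778 cells) had 311 CPM of Mmp2. The cluster most like the low-Mmp2 one in each other library was found from the genes outside the family, with r from 0.869 to 0.906. It stood at 74.2 CPM of Mmp2 with TBX18 at day 3, 16.8 with GFP at day 14, 119 with TBX18 at day 14 and 86.9 with A83-01. Timp2 in these clusters was 1435, 948, 1239 and 962 CPM, and Timp3 was between 1.35 and 11.1 CPM. These cells made up 8.45% and 5.43% of compartment 2 at day 3 and 4.53%, 1.12% and 0.997% at day 14, so they weigh little on the sums given above. What kind of cell they are could not be read without gene names.

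Timp3 in compartment 2 was concentrated in another cluster. With GFP at day 3, 154 cells (4.89% of the compartment) stood at 88.8 CPM and held 25.3% of its Timp3 UMIs. The closest cluster by other genes with TBX18 at day 3 (145 cells, r = 0.897) stood at 71.6 CPM and held 19.1%. At day 14 the closest clusters (r from 0.718 to 0.745) stood at 94.7, 226 and 212 CPM with GFP, TBX18 and A83-01 and held 21.6%, 6.98% and 16.5%. Other clusters were higher in 2 libraries, with the highest values at 177 CPM for GFP (250 cells) and 345 CPM for TBX18 (316 cells). With A83-01 the clusters of compartment 2 with at least 100 cells had Timp3 between 25.8 and 212 CPM and Timp1 between 132 and 210 CPM. With TBX18 alone Timp1 ranged from 246 to 1271 CPM over such clusters, and with GFP at day 14 from 55.9 to 791 CPM. Among smaller clusters with TBX18 alone, that of 74 cells stood at 154 CPM of Timp1, within the A83-01 range. Those of 71 and 60 cells stood at 755 and 1813 CPM. Clusters are not replicates. Both clusters followed between libraries were chosen for their values with GFP at day 3.

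**Figure D4:**
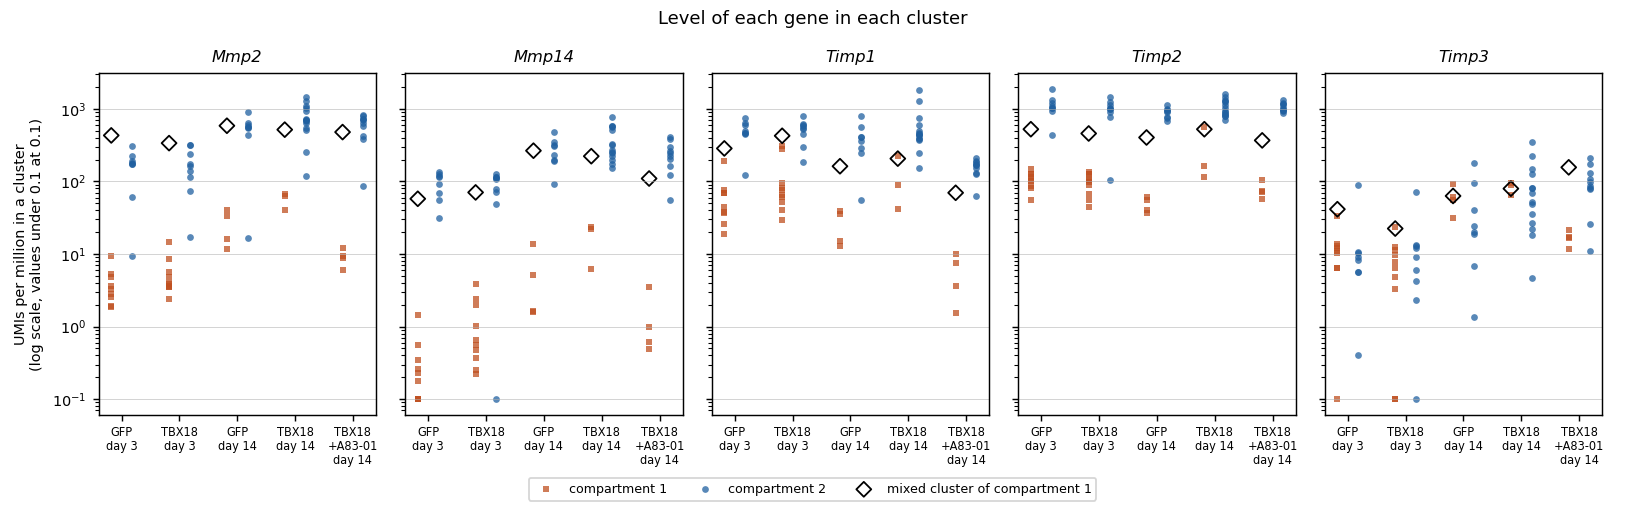
Level of each gene in each cluster in CPM (log scale; values under 0.1 are drawn at 0.1), with compartment 1 as squares, compartment 2 as circles and the mixed cluster of compartment 1 as open diamonds. For Mmp2 the mixed clusters, at 337 to 585 CPM, lie above the clusters of compartment 2 at day 3 and among them at day 14.

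Over the 10 values of 5 libraries and 2 compartments, the level of Mmp14 followed that of Mmp2 (r = 0.994), and Mmp14 was the second closest of 4969 genes to Mmp2. Timp1 and Timp2 had r = 0.886, and Timp1 and Timp3 had r = -0.12. The 3 genes closest to Mmp14 had r from 0.9973 to 0.9978, and Mmp2 was not among them. The compartment 1 values keep the mixed cluster, without which both proteases stood close to the level of the other compartment's genes there. The gap between compartments also enters each r. These correlations describe 10 values that share libraries and compartments and carry no p-value. Among single cells of compartment 2 thinned to 5000 UMIs, UMIs of Mmp2 and Mmp14 were found together in 27.9% of cells with GFP at day 3, 1.16 times the product of their single shares. At day 14 they were found together in 64.0%, 69.6% and 60.5% of cells with GFP, TBX18 and A83-01, from 1.02 to 1.04 times that product. UMIs of Mmp2, Mmp14 and Timp2, whose proteins act together, were found in the same thinned cell for 27.6% and 25.02% of cells at day 3 and for 62.2%, 68.4% and 59.8% at day 14. These shares were 1.17, 1.10, 1.05, 1.02 and 1.04 times the product of the single shares, so they mostly follow those. In 0.193%, 0.274%, 0.124%, 0.0453% and 0.0849% of compartment 2 cells, thinned likewise, none of the 5 genes had a UMI.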

How the data were processed

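RNA of single ventricular cells was measured in 5 libraries made with a 3' droplet kit, per the labels' protocols. Partek, STAR 2.7.8a and the rat build Rnor_6.0 are named in the submitters' processing notes, with no role given. From their values, the authors deposited estimated counts (UMIs, a few of them split between genes) for day 3 and log2 of CPM plus 1 for day 14. For day 14 each cell's commonest value above 0 was set to 1 UMI. Of the values above 0, 99.7% were then whole within 0.05 in each library. Sums were rounded to whole UMIs for the intervals. The design assumed counts in all tables, and the test planned for counts was not needed with 1 library per group.

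Barcodes with at least 500 genes were kept. Scrublet (scanpy 1.11.5) marked too few cells by its own threshold in 3 libraries (0.0615%, 0.0311% and 0%) and 3.53% and 1.73% in the others, so the top 6% of scores were left out in every library (360 to 450 cells), which kept 7678, 6115, 6064, 7899 and 7205 cells. Cells were clustered within each library (2000 variable genes, 30 components, 20 neighbours, leidenalg 0.10.2 at resolution 1), and cluster profiles were joined by average linkage into 2 compartments. Of 17060 Ensembl IDs, 0 matched a symbol, so the planned markers and the planned lists of other proteases and TGF-beta targets were not used, and no other gene of the pathway is reported.

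UMIs were summed per library and compartment and divided by the total. Ratios of sums carry exact intervals given their total (scipy 1.17.1). Over all genes that averaged 20 CPM or more, log2 ratios used a pseudocount of 0.5 CPM, and at least 2-fold was counted as a difference. Recovery and ratios were tested on simulated data. The 5 genes and the lists were chosen with earlier results of these data known. The rule for named genes was the 5 genes in every library and compartment. Alternatives covered scaling, filters on cells, doublets, cluster resolution, joint clustering, equal weight per cell, pseudocount and minimum level. The removal of the mixed cluster and the restriction to the 50% of each compartment's cells with the lower share of the other compartment's 50 most one-sided genes were added after seeing the data. Results planned for a stromal and a myocyte class are given for the 2 unnamed compartments.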

Additional observations from a re-analysis of the deposited data

Results flagged for a closer look

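Several log2 ratios had opposite signs in the 2 compartments or between the days or viruses. Each rests on 1 library per group, and the differences were not tested. Mmp2 with TBX18 over GFP at day 14 was -0.077 in compartment 1 and 0.48 in compartment 2. Mmp14 with TBX18 over GFP was 0.68 at day 3 and -0.28 at day 14 in compartment 1, and -0.13 and 0.28 in compartment 2. The negative values in compartment 1 at day 14 were 1.30 for Mmp2 and 1.80 for Mmp14 once the mixed cluster was left out. Timp2 with TBX18 over GFP was 0.086 in compartment 1 at day 3, while in compartment 2 it was -0.23 at day 3 and 0.25 at day 14. Timp2 at day 14 over day 3 in compartment 2 was -0.43 with GFP and 0.047 with TBX18. Timp3 with TBX18 over GFP in compartment 1 was -0.24 at day 3 and 0.61 at day 14. Timp3 with A83-01 over TBX18 alone was -0.88 in compartment 1 and 0.82 in compartment 2.

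Barcodes with fewer than 500 genes, which no comparison used, also held UMIs of the family at day 3. The 731 such barcodes of the GFP library held 9 UMIs of Mmp2, 24 of Timp1 and 39 of Timp2, above the 3 UMIs taken as the floor. These are 1.73, 4.60 and 7.48 CPM, far below the 112, 256 and 606 CPM over all kept cells of that library. The 292 of the TBX18 library held 5 of Mmp2, 8 of Timp1 and 14 of Timp2.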

How the results depend on the processing

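No paired analysis was possible because every group has 1 library, and for the same reason no library could be left out. The planned restriction of each class by named markers was not run, since the markers could not be read, and the 50% of cells purest by one-sided genes took its place (the purer cells). Of 550 log2 ratios under the alternatives, 337 stayed within the counting interval of the reported value, 193 left it and 20 changed sign with an interval that did not reach 0. The 337 include ratios that could not move. The day 14 tables start at 1993 genes, so a minimum of 1000 genes and the day 14 range left comparisons between day 14 libraries unchanged. Compartment 2 kept its directions for every ratio of at least 0.1 in size, and its count of genes past 2-fold differed from the reported value only in the purer cells for TBX18 over GFP at day 14 (1 gene, Timp3 at 1.05, against 0).

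In compartment 1 the counts below take all 5 genes whatever their level, also without the mixed cluster and in the purer cells. Without the mixed cluster both proteases averaged less than the 20 CPM minimum. TBX18 over GFP at day 3 (reported value 0) had 1 gene past 2-fold in 5 settings, but not the same gene. It was Timp1 (1.01) with median-of-ratios scaling, Mmp2 in the lower direction (-1.47) with the top 12% left out as doublets, and Mmp14 at resolution 2 (1.33), without the mixed cluster (1.33) and in the purer cells (1.28). With equal weight per cell it had 2, Mmp14 (1.06) and Timp1 (1.02). TBX18 over GFP at day 14 (reported value 2) had 0 with median-of-ratios scaling and with no doublets left out, and 4 without the mixed cluster and in the purer cells. A83-01 over TBX18 (reported value 3) had 1 with median-of-ratios scaling and with no doublets left out, 4 with the top 12% left out and in the purer cells, and 5 without the mixed cluster, and the scaling lowered the share of all genes past 2-fold from 10.4% to 5.54%. Day 14 over day 3 with TBX18 (reported value 4) had 3 with that scaling, without the mixed cluster and in the purer cells. Day 14 over day 3 with GFP had 5 without the mixed cluster and in the purer cells (reported value 3). Fewer cells enter without the mixed cluster and in the purer cells by construction. For TBX18 over GFP at day 3, all 5 ratios at resolution 2 equalled those without the mixed cluster, so these settings are not separate there. The cause of the other changes was not tested.

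Sign changes in compartment 1 were as follows. With TBX18 over GFP at day 3, Mmp14 was -0.34 with the top 12% left out, and Mmp2, whose reported 0.05 had an interval that reached 0, was -1.47 with the top 12% left out and -0.31 in the day 14 range. With TBX18 over GFP at day 14, Mmp2 was 0.16 with no doublets left out, 0.53 with the top 12% left out, 0.24 with equal weight per cell, 1.30 without the mixed cluster and 1.62 in the purer cells. Mmp14 was 0.41, 0.052, 1.80 and 1.67 under the last 4 of these. Timp1 at day 14 over day 3 was 0.20 with GFP and 0.027 with TBX18 when no doublets were left out, and with TBX18 0.053 in the day 14 range of genes and UMIs and 0.043 at resolution 2. In compartment 2, Timp2 with A83-01 over TBX18 was 0.078 with median-of-ratios scaling and 0.022 in the purer cells. Timp2 at day 14 over day 3 with TBX18 was -0.23 with that scaling, -0.0086 in the day 14 range and -0.073 in the purer cells, and Timp1 was 0.068 with equal weight per cell.

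Depth limits Timp3 most, with 944 UMIs in compartment 2 of the GFP library at day 3, and Mmp14 in compartment 1, with 25 UMIs there once the mixed cluster was left out.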

Other observations

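The day 14 tables also list the features Dsred, hSHOX2 and hTBX3. All 3 had 0 UMIs in the 3 libraries, which allows up to 0.0286 CPM with GFP, 0.0219 CPM with TBX18 and 0.0215 CPM with TBX18 and A83-01.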
